A study of Mus musculus with 12 samples.

Results

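Molecular chaperones of the cytosol and mitochondria were followed in mouse 3T3 cells treated with Shld1. The set was chosen by gene symbol: heat shock proteins of the Hsp90, Hsp70, Hsp110, Hsp60/Hsp10 and small families, the J-domain proteins of the DNAJA, DNAJB and DNAJC classes, and the subunits of the cytosolic chaperonin CCT (Cct2 to Cct8 and Tcp1). Hspg2, which is a matrix proteoglycan, and the endoplasmic reticulum chaperones Hspa5, Hsp90b1, Dnajb9, Dnajb11 and Dnajc3 were left out. This gave 70 of the 16969 genes that have a probe with 1 symbol, on 116 probes. The names do not fully match the compartments: Dnajc1, Dnajc10, Dnajb12 and Hspa13 encode proteins of the endoplasmic reticulum, Hspb11 encodes an intraflagellar transport protein, and Hspbp1 encodes an exchange factor of Hsp70. No probe carried the symbol of Hsp90ab1 or Hspa1b.

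3T3 is an established mouse fibroblast line, and Shld1 is a small synthetic ligand of a destabilizing domain derived from FKBP12, which it shields from degradation. The 4 groups were untreated control cells and cells given Shld1 at 10 nM, 100 nM or 1 µM, with 3 arrays each. On every array the RNA of 1 sample, labelled with Cy5, was set against the same Stratagene mouse reference RNA, a pool from cell lines, labelled with Cy3. The sources used here do not give the treatment time, the medium or whether the cells carried a destabilizing-domain fusion. Nor do the labels say that replicates were separate cultures, so p-values measure only the spread between these samples, and the number of arrays limits the precision. A value below is a log2 ratio of cells over reference after centring each array on its median, or a difference between 2 such ratios (a log2 change). The direction is likely and rests on the dyes and on marker genes. With the opposite direction every sign would turn.

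Chaperones bind unfolded or partly folded proteins and keep them from aggregating. Hsp70 works in cycles driven by ATP, in which J-domain proteins deliver substrates and start hydrolysis and exchange factors release the nucleotide. Hsp90 acts later on signalling proteins such as kinases and steroid receptors, while the closed chambers of Hsp60 with Hsp10 in mitochondria and of CCT in the cytosol enclose their substrates, actin and tubulin being the classic clients of CCT. When unfolded protein accumulates, the factor HSF1 binds repeated heat shock elements and raises Hspa1a, Hsph1, Dnajb1, Hspb1 and others, so these transcripts serve as a common readout of proteotoxic stress.

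Arrays held values for 30649 to 33615 of 38784 probes. Fibroblast markers stood above the reference, with 10 of 11 called higher (all genes 38.6%) and a median log2 ratio of 1.45. Of 7 leukocyte markers tested, 6 were called lower (all genes 34.4%), with a median of -1.33. The direction of the ratio rests partly on these signs, so they are no separate check of it. Other markers were mixed. Called higher were 2 of 4 adipocyte, 2 of 6 epithelial, 1 of 3 muscle and 1 of 2 endothelial markers tested (all genes 38.6%). Called lower were 1 adipocyte and 3 epithelial markers (all genes 34.4%). The mean of the 11 fibroblast markers lay between 1.45 and 1.76 on control arrays and between 1.13 and 1.37 at 1 µM, and that of the 7 leukocyte markers between -1.94 and -0.80 and between -1.18 and -0.56. None of these markers passed at any dose, and their part in the chaperone values was not tested.

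The heat shock element is the sequence through which HSF1 controls many of these genes, so promoters were searched for it in RefSeq windows (build GRCm38.p6) from 250 bases before to 50 after a start site. A run of 3 units was spelled GAANNTTCNNGAA or TTCNNGAANNTTC, and a run of 2 units GAANNTTC or TTCNNGAA. Each was read on both strands, and every 3-unit match also holds the 2-unit one. Of the 57 members with a window, 4 held 3 units (7.02%), against 0.662% of 27025 genes, and 17 held 2 units (29.8%), against 17.0%. The 4 were Hspd1, Hspe1, Dnajb6 and Hsph1. Hspa1a had 2 units only. The first sequence is shown because Hspd1 and Hspe1, which encode the chamber and the lid of the mitochondrial chaperonin, share it. The genes lie on opposite strands, and the stretch lies between the start of Hspe1 and the farther of 2 starts of Hspd1 (chr1:55087933-55088147, plus strand). The other Hspd1 start lies inside Hspe1. The 18 bases in capitals hold 1 match of each spelling, overlapping. The second is the 100 bases before the first start of Dnajb6 (chr5:29735798-29735897, plus strand), with its match in capitals.
Hspe1 and Hspd1: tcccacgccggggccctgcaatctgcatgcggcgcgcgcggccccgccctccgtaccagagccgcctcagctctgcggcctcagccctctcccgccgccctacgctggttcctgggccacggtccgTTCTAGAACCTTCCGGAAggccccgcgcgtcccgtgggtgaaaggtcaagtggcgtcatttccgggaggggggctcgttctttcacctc
Dnajb6: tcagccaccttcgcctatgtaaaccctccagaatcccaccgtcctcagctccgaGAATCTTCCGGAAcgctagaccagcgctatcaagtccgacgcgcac
The match of Hsph1, TTCTGGAAAGTTC on the minus strand (chr5:149636288-149636300), lay just after its start sites. A match is a description of these letters, not a measured binding site.

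The title of the series asks what Shld1 does to 3T3 cells, and for the chaperones no transcript passed at any dose. At 1 µM, 0 of the 62 members tested had an adjusted p under 0.05 (limma with Benjamini-Hochberg adjustment over all genes), as did 0 of all 14523 genes tested (0%). An unadjusted p under 0.05 was reached by 1 member, Dnajc24, against 618 of all genes (4.26%). At 100 nM 0 members passed (all genes 0%), and Dnajc24 alone had an unadjusted p under 0.05 (all genes 3.02%). At 10 nM 0 passed (all genes 0%), and Hspa2 alone had an unadjusted p under 0.05 (all genes 2.48%). The F test over the doses and the trend over dose rank called 0 members and 0 genes (0%) as well, with unadjusted p under 0.05 for 2 members (all genes 2.91%) and for 1 (all genes 3.56%). The 3 doses share the control arrays, so they are not independent tests.

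The spread between arrays allowed limits to be set on the gene values of most members. At 1 µM the 95% interval of the log2 change lay within -1 to 1, that is within a doubling or a halving, for 56 of 62 members (90.3%, all genes 83.0%), and within -0.5 to 0.5 for 27 (43.5%, all genes 27.4%). The exceptions to the wider limit were Cct6b, Cct7, Dnajb13, Dnajc16, Dnajc25 and Hspa2. The intervals measure the spread between arrays and leave out disagreement between probes of a gene. Hspa4l lay within the wider limit, though its probes gave 1.04 and -0.53 at 1 µM. So did Hspbap1, though a probe with values on 8 arrays, not used for its gene value, gave -1.38 (SE 0.43). At 100 nM and at 10 nM 57 members lay within the wider limit (91.9%, all genes 84.8% at both), and 19 (all genes 29.3%) and 25 (all genes 29.0%) within the narrower one. The median log2 change of the members was 0.018 at 1 µM, 0.056 at 100 nM and -0.036 at 10 nM, beside -0.015, 0.018 and -0.0077 over all genes. The numbers of members above control were 33, 42 and 25, beside 47.0%, 53.9% and 48.4% of all genes.

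**Figure D1:**
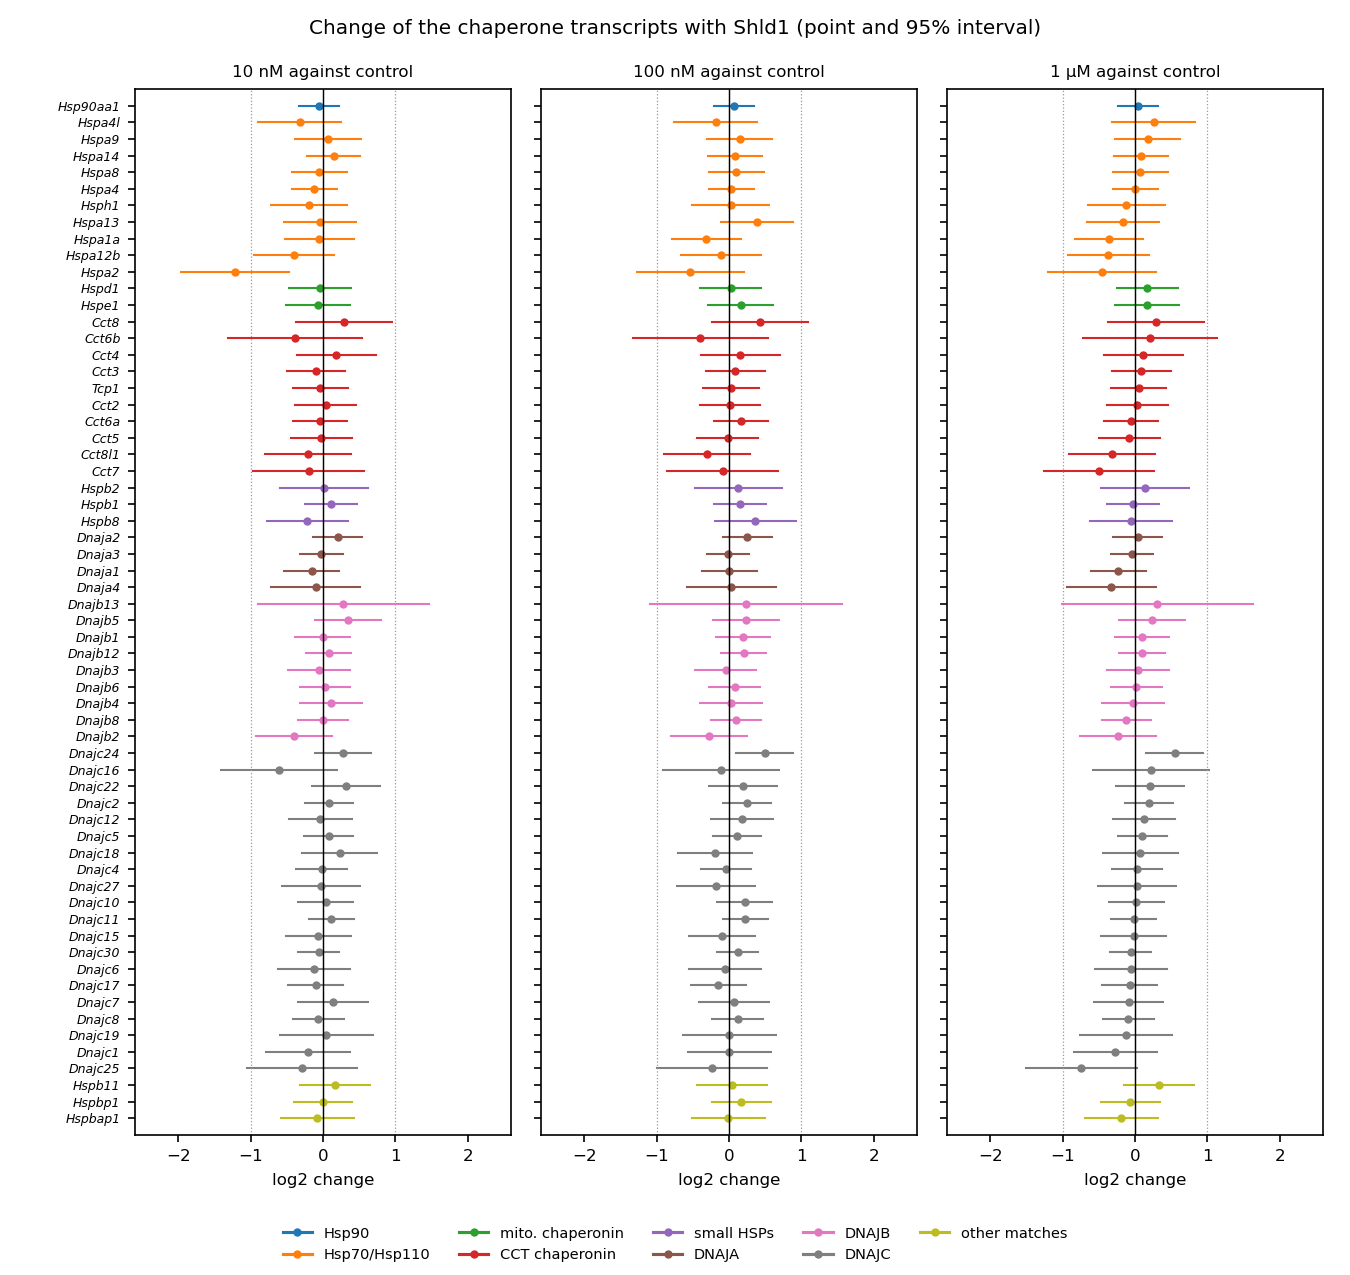
Log2 change against control for the 62 members tested at 10 nM, 100 nM and 1 µM Shld1, with 1 row per gene coloured by family, points for the estimate and lines for the 95% interval from limma. Dotted lines mark -1 and 1. Most intervals span 0 in every panel, and the wide ones belong to genes such as Dnajb13 and Cct7.

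Hsp90aa1, the stress-responsive cytosolic Hsp90, was among the steadiest members. Its log2 ratio was 0.62, 0.59 and 0.60 on the control arrays, 0.58, 0.52 and 0.52 at 10 nM, 0.84, 0.61 and 0.58 at 100 nM and 0.71, 0.66 and 0.55 at 1 µM. The 10 nM arrays all lay below the controls, and 1 array at 100 nM stood above the rest. The log2 change at 1 µM was 0.042 (SE 0.13, 95% interval -0.24 to 0.32).

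Hspa8, the constitutive Hsp70, read 0.51, -0.017 and 0.057 in controls and 0.40, 0.27 and 0.11 at 1 µM. The groups overlapped, and the log2 change was 0.075 (SE 0.17). Hspa1a, the inducible Hsp70, read -0.46, -0.27 and -0.021 in controls, -0.18, -0.57 and -0.16 at 10 nM, -0.31, -0.98 and -0.40 at 100 nM and -0.35, -0.63 and -0.86 at 1 µM. Its change at 1 µM was -0.36 (SE 0.22, 95% interval -0.84 to 0.11; adjusted p = 0.999, limma), with the lowest control array inside the range of the 1 µM arrays. Hspa1a and Hspa1b are near-identical copies, so the probe may read both. Hsph1, the Hsp110 that acts as an exchange factor of Hsp70, read 0.064, 0.052 and 0.21 in controls and 0.56, 0.032 and -0.64 at 1 µM, so its 1 µM arrays lay on both sides of the controls. The change was -0.12 (SE 0.24), and without 1 µM replicate 3 it was 0.19. Hspa4, of the same Hsp110 group, had a change of 0.0013 (SE 0.14).

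Hspa2, a Hsp70 best known from the testis, had the lowest log2 change of the set at 10 nM. It read 0.98, 0.49 and -0.0030 in controls, -0.27, -0.38 and -1.51 at 10 nM, 0.15, 0.00 and -0.28 at 100 nM, and 0.46, -0.27 and -0.080 at 1 µM. All 10 nM arrays lay below all controls, while the other doses overlapped them. The change at 10 nM was -1.21 (SE 0.34, 95% interval -1.96 to -0.47; unadjusted p = 0.00416, adjusted p = 1.00, limma), and it was -0.82 without 10 nM replicate 3. At 100 nM and 1 µM it was -0.53 and -0.45. Hspa4l, another Hsp110, read -0.49, 0.089 and -0.80 in controls and -0.14, -0.17 and -0.11 at 1 µM, a change of 0.26 (SE 0.26). Its 2 probes gave changes of 1.04 and -0.53. Hspa12b and Hspa13, distant relatives of Hsp70, had changes of -0.37 (SE 0.25) and -0.17 (SE 0.23) at 1 µM, and Hspa13 was at 0.39 at 100 nM. Mitochondrial Hspa9 (mortalin) was at 0.17 (SE 0.21).

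For neither mitochondrial chaperonin gene did a dose pass. Hspd1 (Hsp60) read 1.13, 1.67 and 1.18 in controls and 1.81, 1.47 and 1.21 at 1 µM, with the log2 difference at 0.17 (SE 0.19) and its 95% interval from -0.25 to 0.60. Hspe1 (Hsp10) read 1.23, 0.94 and 0.64 in controls and 1.27, 1.16 and 0.88 at 1 µM, with the log2 difference at 0.17 (SE 0.20) and its 95% interval from -0.28 to 0.61. In both genes the groups overlapped. With 1 array left out, the change of Hspd1 ranged from 0.014 (without 1 µM replicate 1) to 0.34 (without control replicate 2) and that of Hspe1 from 0.015 (without control replicate 3) to 0.31 (without control replicate 1). At 10 nM the changes were -0.043 and -0.068.

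Of the small heat shock proteins, Hspb1 (Hsp25) had a log2 change of -0.025 (SE 0.17) at 1 µM and Hspb8 (Hsp22), which works with Bag3 in selective autophagy, one of -0.054 (SE 0.26). Hspb8 read between 0.49 and 1.51 over the 12 arrays, with 1.46, 1.25 and 1.51 at 100 nM, where its change was 0.36 (SE 0.26).

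Of the CCT genes, 6 of 10 lay above control at 1 µM and 4 below, with a median log2 change of 0.042. Cct7, the eta subunit, had the lowest, at -0.50 (SE 0.35, 95% interval -1.26 to 0.27), and Cct8, the theta subunit, the highest, at 0.29 (SE 0.30). Without control replicate 1 the change of Cct7 was -0.21, and without 1 µM replicate 1 it was -0.80. Cct8 read 0.53, -0.98 and 0.21 in controls and 0.18, 0.39 and 0.084 at 1 µM, so that control replicate 2 stood far below all others. Without that array its change was -0.16, and that of Cct4, at -1.14 on the same array and 0.12 with it, was -0.19. The changes of Tcp1, Cct2, Cct3, Cct5 and Cct6a at 1 µM lay between -0.078 and 0.088.

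**Figure D2:**
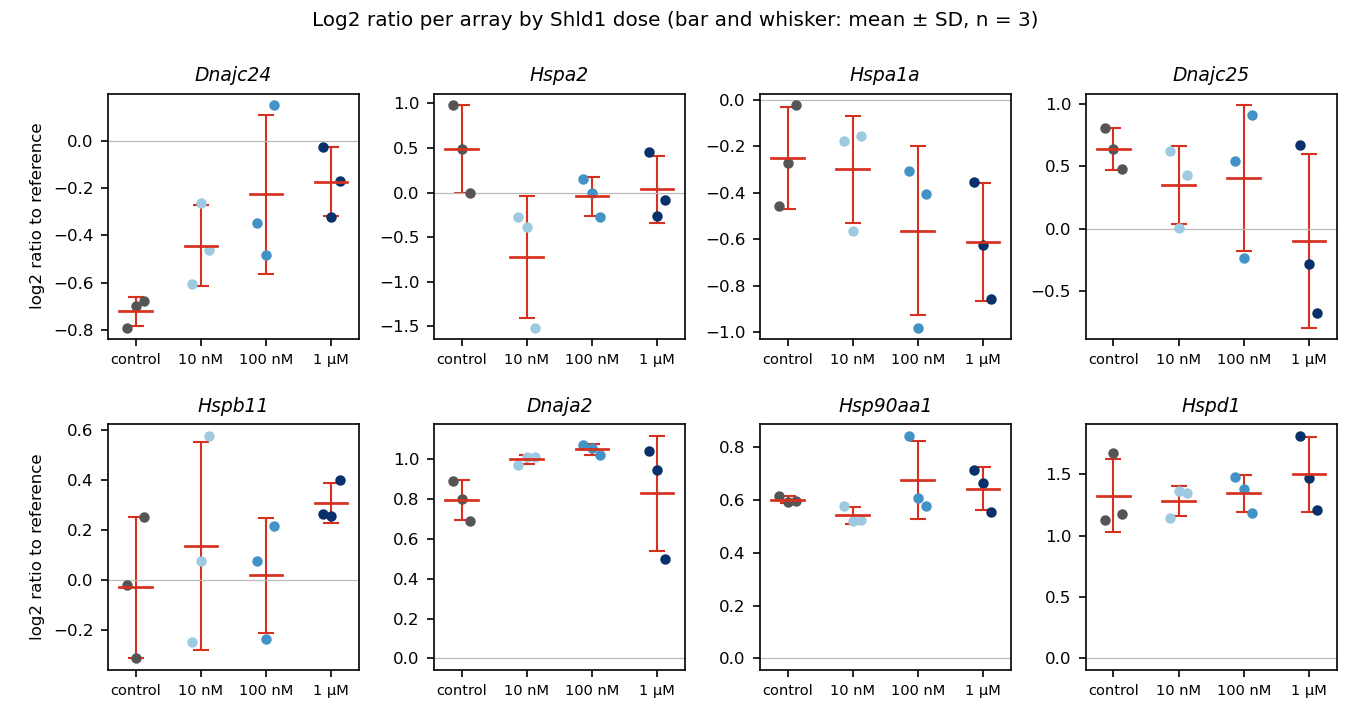
Log2 ratio to the reference on each array for 8 members (y axis) by Shld1 dose (x axis), with points for the 3 arrays of a group and a bar and whisker for mean ± SD. The control arrays of Dnajc24 lie below its 9 treated arrays, and the other panels show doses that overlap control in at least 1 group.

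The J-domain proteins included the member with the most ordered pattern. Dnajc24 encodes DPH4, which serves in the making of diphthamide on elongation factor 2 rather than as a general co-chaperone. It read -0.79, -0.70 and -0.68 in controls, -0.60, -0.26 and -0.46 at 10 nM, -0.35, -0.48 and 0.15 at 100 nM, and -0.026, -0.32 and -0.17 at 1 µM. All 9 treated arrays lay above all 3 controls, in 1 of 62 members and in 47 of 14523 genes (0.324%). Group means were -0.72 ± 0.060 in controls, -0.44 ± 0.17 at 10 nM, -0.23 ± 0.33 at 100 nM and -0.17 ± 0.15 at 1 µM (SD, n = 3). The log2 changes were 0.28, 0.49 and 0.55 from the lowest to the highest dose (SE 0.18), the last with a 95% interval of 0.16 to 0.94 or 1.46-fold. The unadjusted p was 0.0101 and the adjusted p 0.999 (limma), so it was not called, and over 24 settings its change at 1 µM stayed between 0.48 and 0.62. At 100 nM the change was 0.31 without replicate 3 of that dose, and at 10 nM it was 0.19 without replicate 2 of that dose. The trend was 0.19 for each step in dose rank (SE 0.057; unadjusted p = 0.00668, adjusted p = 1.00, limma). The gene has 1 probe on the array.

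Other J-domain genes had smaller changes or a wider spread between arrays. Dnajc25 read 0.81, 0.64 and 0.48 in controls and 0.67, -0.29 and -0.68 at 1 µM. Its change of -0.74 (SE 0.35, 95% interval -1.51 to 0.025) was the lowest of the set at that dose. It overlapped control through replicate 1, and the mean of all its probes gave -0.27. Dnaja1 and Dnajb1, the main partners of cytosolic Hsp70, were at -0.23 (SE 0.17) and 0.10 (SE 0.17), and mitochondrial Dnaja3 at -0.040 (SE 0.13). Dnaja2 read 0.89, 0.80 and 0.69 in controls and 1.07, 1.06 and 1.02 at 100 nM, with no overlap there or at 10 nM. Its change was 0.25 (SE 0.15) at 100 nM and 0.035 at 1 µM. These values come from the 1 Dnaja2 probe with a value on every array. The other Dnaja2 probe, with values on 11 arrays, had a change of -0.56 (SE 0.27) at 1 µM. Dnajc2 (ribosome-bound MPP11) and Dnajb5 were at 0.19 (SE 0.15) and 0.23 (SE 0.21) at 1 µM. Dnajb2 was at -0.27 at 100 nM and -0.41 at 10 nM, or -0.090 at 10 nM without replicate 1 of that dose and -0.65 without replicate 3. Dnajc16 was at -0.61 at 10 nM, or -0.22 at the least when 1 array was left out and -0.047 with the mean of all its probes. Dnajc22 was at 0.32 at 10 nM, or 0.17 without control replicate 1 and 0.49 without control replicate 3.

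Members whose arrays did not overlap the controls were few at each dose. At 1 µM, Dnajc24 and Hspb11 lay wholly above (3.23% of members, all genes 3.68%) and 0 wholly below (all genes 4.81%). Hspb11 read -0.023, -0.32 and 0.25 in controls and 0.27, 0.26 and 0.40 at 1 µM, a change of 0.34 (SE 0.22). At 100 nM, Dnaja2, Dnajc2, Dnajc8, Dnajc11 and Dnajc24 lay above (8.06%, all genes 4.24%) and 0 below (all genes 3.99%). At 10 nM, Dnaja2 and Dnajc24 lay above (3.23%, all genes 3.48%) and Hsp90aa1, Hspa2 and Hsph1 below (4.84%, all genes 3.66%).

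The 11 measured members listed here as inducible by HSF1 (Hspa1a, Hspa8, Hsph1, Hspa4, Hsp90aa1, Dnajb1, Dnaja1, Hspb1, Hspb8, Hspd1 and Hspe1) were counted as 1 list. How strongly each responds to HSF1 was not tested, and the list includes the constitutive Hspa8. At 1 µM 6 of the 11 lay above control and 5 below, with a median log2 change of 0.0013. At 100 nM 10 lay above, with a median of 0.074. At 10 nM 1 lay above and 10 below, with a median of -0.060. Of all 62 members 33, 42 and 25 lay above control at 1 µM, 100 nM and 10 nM, and of all genes 47.0%, 53.9% and 48.4%. None passed at any dose, and all 3 counts are set against the same control arrays.

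Against the reference RNA the share of members that differed was near that of all genes. Averaged over the 4 groups, 46 of 62 members passed (74.2%, all genes 73.0%; limma, adjusted p under 0.05), with mean log2 ratios from -1.08 to 1.36, 29 of them higher in 3T3 cells (46.8%, all genes 38.6%) and 17 lower (27.4%, all genes 34.4%). On the control arrays alone 29 passed (all genes 46.1%), 20 higher (all genes 26.5%) and 9 lower (all genes 19.6%). The balance depends on where 0 is set, for members and for all genes. Without centring, which moved the median of all genes from 0.031 to -0.12, the split was 20 higher and 20 lower. With quantile normalization it was 20 and 21. The higher share of member calls was then 50% and 48.8% (all genes 39.3% and 39.2%), beside 63.0% in the main run (all genes 52.9%). For control arrays alone the splits were 16 and 15, or 16 and 14. There the higher share was 51.6% and 53.3% (all genes 40.5% and 40.4%), beside 69.0% in the main run (all genes 57.5%). Dyes were not swapped, so a probe that favours 1 dye and a gene that differs between the RNAs cannot be told apart. A ratio compares 1 gene in 2 RNAs, so the order below is not an order of amounts.

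**Figure D3:**
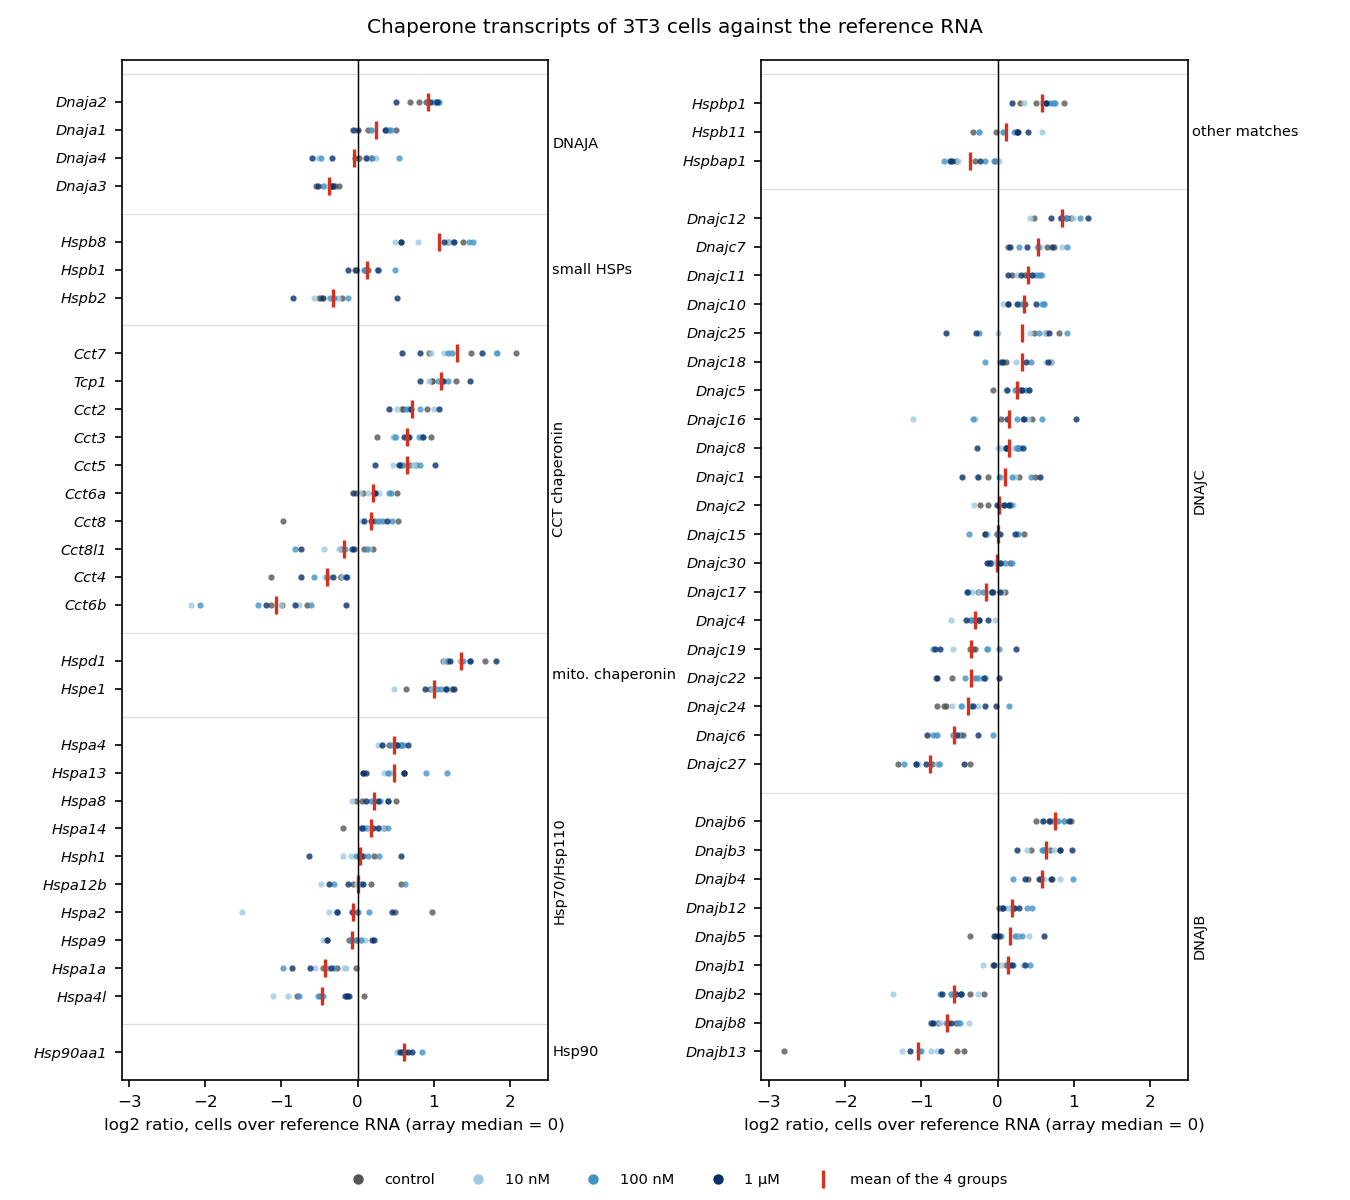
Log2 ratio of cells over reference RNA for the 62 members tested (x axis, array median set to 0), grouped by family, with 1 point per array coloured by dose and a red tick for the mean of the 4 groups. The mitochondrial chaperonin and most CCT subunits lie right of 0, and doses are mixed within most rows.

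The genes of both chambers mostly stood above the reference. Hspd1 had the highest mean log2 ratio of the members tested, 1.36 (SE 0.069, adjusted p = 1.21e-08, limma) or 2.57-fold, and Hspe1 was at 1.00 (SE 0.072, adjusted p = 1.79e-07). Of the 8 subunits of the CCT ring, 7 had a ratio above 0 and 6 were called higher (all genes 38.6%), with a median of 0.64 beside 0.031 over all genes. Cct7 was at 1.31 (SE 0.12), Tcp1, the alpha subunit, at 1.10 (SE 0.062), Cct2 at 0.72, Cct3 at 0.65, Cct5 at 0.64 and Cct6a at 0.21, a call that ended without centring (0.056, adjusted p = 0.449). Cct8, at 0.17, was not called (adjusted p = 0.160), though without control replicate 2 it was (0.29, adjusted p = 0.000988). Cct4, the delta subunit, was called lower, at -0.41 (SE 0.089, adjusted p = 0.00131). The ratios of the ring subunits spanned 3.29-fold. In the assembled ring each of these subunits takes a single place. Outside the ring, Cct6b, the testis form of the zeta subunit, had the lowest ratio among the 62 members tested, -1.08 (SE 0.15), and its relation to Cct6a leaves the probe's specificity uncertain.

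Hsp90aa1 was higher in the cells, at 0.61 (SE 0.045, adjusted p = 1.97e-07), as were Hspa4 at 0.48 (SE 0.050) and Hspa13 at 0.47 (SE 0.081). Hspa8 was at 0.21 (SE 0.061, adjusted p = 0.00738), a call that ended without centring (0.064, adjusted p = 0.356). Hspa1a and Hspa4l were lower, at -0.43 (SE 0.077) and -0.46 (SE 0.093). Hspa9, at -0.079, was not called, but without centring it was lower (-0.23, adjusted p = 0.0176). Hsph1, at 0.035, and Hspa2, at -0.059, were not called.

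The small heat shock protein gene Hspb8 was at 1.07 (SE 0.091), while Hspb1 was at 0.12 (adjusted p = 0.0731, limma) and Hspb2 lower, at -0.33. The 2 probes of Hspb1 were at -0.43 and 0.68. Of the DNAJA genes, Dnaja2 was higher at 0.92 (SE 0.054), on its 1 probe with a value on every array. Without 10 nM replicate 1 it was at 0.52. A second Dnaja2 probe, at 0.12 over 11 arrays, then counted as complete and entered the mean. Dnaja1 was higher at 0.24 (SE 0.062) and Dnaja3 lower at -0.38 (SE 0.047). The call of Dnaja1 was lost without centring (0.089, adjusted p = 0.221), and the mean of all its probes was -0.0091. Dnajb6, which suppresses polyglutamine aggregation, was at 0.75 (SE 0.057) and Dnajb4 at 0.59. The probes averaged ran from -0.17 to 1.24 for Dnajb6 and from -0.0093 to 1.19 for Dnajb4. Dnajb2 was lower at -0.57 (SE 0.085). Dnajb8 and Dnajb13 were also lower, at -0.66 (SE 0.056) and -1.05 (SE 0.21, on 10 arrays), while Dnajb3 was higher at 0.63 (SE 0.069). Dnajb1, at 0.14, was not called (adjusted p = 0.0564). Of 20 DNAJC genes, 8 were higher (all genes 38.6%), led by Dnajc12 at 0.85, and 7 lower (all genes 34.4%). The lower ones were led by Dnajc27 at -0.89 (SE 0.087) and Dnajc6 (auxilin 1, which uncoats clathrin vesicles) at -0.57 (SE 0.080).

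The labels number the replicates 1 to 3, and array numbers run in order within each number. In a test of that number 0 members passed (all genes 0.0138%), with an unadjusted p under 0.05 for 7 (11.3%, all genes 10.9%). Cct7 came closest (unadjusted p = 0.000332, adjusted p = 0.215, limma). Its arrays of number 1 read 2.08, 1.81, 1.82 and 1.63 from control to 1 µM, those of number 2 read 1.49, 1.14, 1.24 and 0.58, and those of number 3 read 0.94, 0.96, 1.19 and 0.81. The arrays of number 1 lay above all others, whereas Tcp1, Cct2, Cct3 and Cct5 showed no such order. Hspa2, Dnajb13, Dnajc16, Hspa12b, Cct6b and Hspb11 followed, with adjusted p from 0.313 to 0.452.

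**Figure D4:**
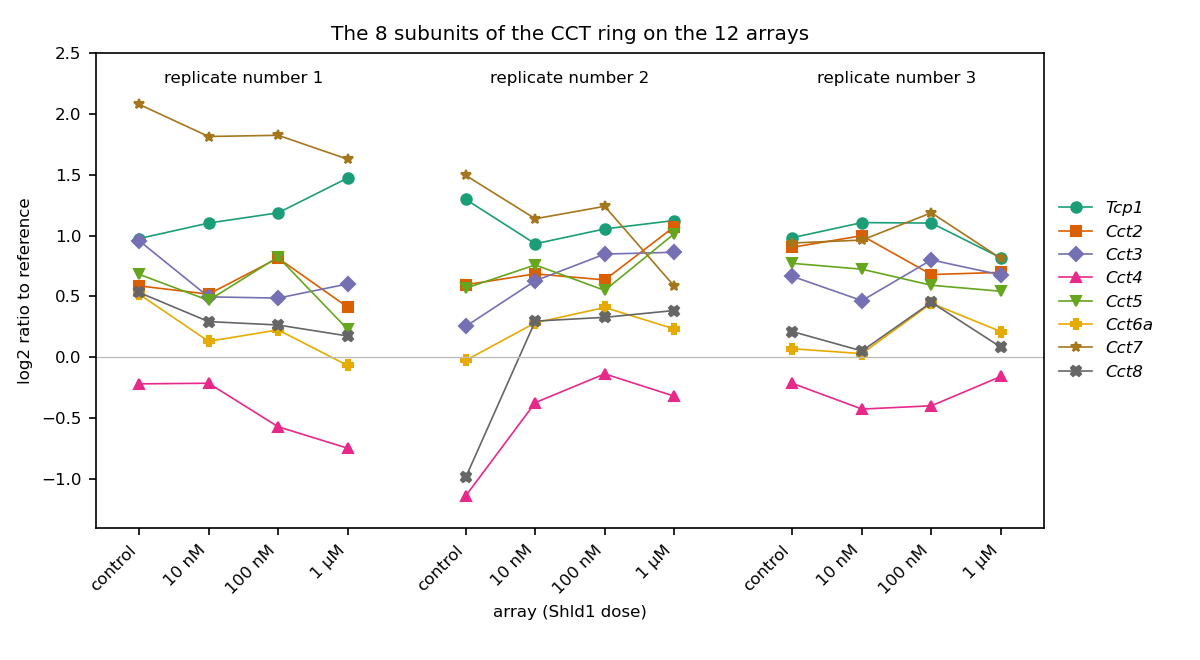
Log2 ratio of the 8 CCT ring subunits (y axis) on the 12 arrays (x axis), ordered by replicate number and, within it, by dose, with 1 coloured line per subunit. Cct7 is highest on the arrays of number 1, and Cct4 and Cct8 drop on the second control array.

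Probes of 1 gene often disagreed on the ratio to the reference. Over the 23 members with 2 or more probes on every array, the median range between probes was 0.67 for the ratio and 0.23 for the change at 1 µM, and in 13 the probes lay on both sides of 0. Hspa14 had probes at -0.86 and 1.21, Dnajc5 from -0.32 to 1.27, and Hsp90aa1 from -0.15 to 1.41, so that a member's ratio depends on which probes the array carries. In 16 of the 23 the changes at 1 µM had both signs. The 101 member probes tested singly gave 0 calls.

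The 8 members not tested lacked values in at least 1 group: Dnajb7, Dnajc9, Dnajc14, Dnajc28, Hspa12a, Hspa1l, Hspb3 and Hspb7. Hspb3 had no value, Hspb7 had 2, of -3.73 and -3.87, and Dnajc14 had 1. Dnajc9, a J-domain protein that chaperones histones, ranged from -0.30 to 0.97, Dnajc28 from -1.30 to -0.11, and Hspa12a, a distant relative of Hsp70, from -0.76 to 0.26.

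Partners of the chaperones outside the set gave no call at any dose, in 52 genes tested. Bag3, an exchange factor induced with the heat shock genes, was at 0.16 (SE 0.13) at 1 µM, and Hsf2 and Hsf4, which encode heat shock factors, were at 0.038 (SE 0.19) and -0.065 (SE 0.18). Of 16 Hsp90 co-chaperones, 5 lay above control and 11 below, with Fkbp5, an immunophilin of the FKBP family, at -0.32 (SE 0.17) and Cdc37, which brings kinases to Hsp90, at 0.23 (SE 0.19). Of 7 tested prefoldin and CCT co-factors, 4 lay above, and Pfdn1, a prefoldin subunit that passes actin and tubulin to CCT, was at 0.41 (SE 0.20). The mitochondrial proteases Afg3l2 and Lonp1 were at -0.47 (SE 0.16, unadjusted p = 0.0122, adjusted p = 0.999, limma) and 0.57 (SE 0.35). Of the 5 endoplasmic reticulum chaperones left out of the set, 2 lay above control and 3 below, with a median of -0.026, beside 0.018 for the members. The lowest was Dnajc3, a co-chaperone of the ER lumen, at -0.66 (SE 0.24, unadjusted p = 0.0194, adjusted p = 0.999, limma).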

How the data were processed

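RNA of 12 samples was measured on spotted arrays of 2 colours. The deposited table holds 1 log2 ratio per probe and array. Log base 2 is assumed, and the scale, centring and direction of the authors' values stay unknown. The direction used, sample (Cy5) over reference (Cy3), follows the dyes per the labels and the signs of fibroblast and leukocyte markers. The sources used here do not give the authors' background correction, normalization or spot filters. Scanner intensities were not analysed here, so signal over background is unknown. The medians of the arrays ran from -0.20 to -0.10 and their pairwise correlations from 0.656 to 0.846. No pair had more than 0.177% of its values equal within 0.001.

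Probes were named from GEO's platform annotation (26173 with 1 symbol, 28 with several, 12583 with none). Symbols updated through RefSeq gave the same 70 members. Each array was centred on its median. The value of a gene averaged those of its probes that had a value on every array, or was that of its most complete probe where there were none. Genes with at least 2 values in every group were tested, 14523 in all, with 61 of the members complete and Dnajb13 fitted on 10 arrays.

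limma 3.58.1 (R 4.3.3) fitted the 4 groups over all 12 arrays without another term, with Benjamini-Hochberg adjustment over all genes and a threshold of 0.05. The script was tested on simulated data. The comparisons were each dose against control, an F test, a trend over dose rank, control and the mean of all groups against the reference, and replicate number. Members and gene lists were chosen with earlier results of these data known. The genes named are, by rule, the members with the smallest p at each dose (6 higher and 6 lower at 1 µM, 3 and 3 at the other doses), the 6 highest and 6 lowest against the reference, the 6 leading in replicate number, a fixed list of main chaperones, the members whose probes differ most, and up to 3 genes of each other list. Others, such as Dnajb6, Dnajc12, Dnajb4 and the non-overlapping members, were chosen after their values were seen. Alternatives were other centring, scaling, filters, probe summaries, blocks, variances and weights, and leaving out each array. With an array left out, a probe with a value on all remaining arrays counted as complete, so the probes averaged could change. Figures were drawn with matplotlib 3.10.9.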

Additional observations from a re-analysis of the deposited data

How the results depend on the processing

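The count of members called at the doses, in the F test and in the trend was 0 in every alternative run (23 or 24 each). Against the reference it stayed between 40 and 51 members for all groups and between 21 and 38 for control arrays. Over all genes or probes, 9619 to 15778 and 4974 to 9820 were called. The highest counts, 51 and 38, came from testing each probe on its own, where 1 passing probe was enough to count a member. The median change of the members stayed between -0.050 and 0.047 at 1 µM. Single members were followed under the alternatives only where the rule named them. Among these, the direction turned for members that had not been called and for Dnaja1, called against the reference, which was at -0.0091 with the mean of all probes. At 1 µM, Hspa4 was at -0.0077 without centring and -0.00041 with equal median absolute deviation, Hspb1 at 0.0074 with quantile normalization, and with array weights Hspb8 was at 0.051, Tcp1 at -0.0053, Cct5 at 0.029 and Cct6a at 0.042. At 10 nM, Dnajb5 was at -0.062 with the mean of all probes. Against the reference without centring and with quantile normalization, which both move the zero of an array, Hsph1 was at -0.11 and -0.12, Hspb1 at -0.026 and -0.023, Dnajb1 at -0.011 and -0.016, and Dnajc2 at -0.13 and -0.14. Leaving out 1 array turned the change at 1 µM of Cct8 (range -0.16 to 0.60), Hspa8 (-0.025 to 0.24), Hspa4 (-0.081 to 0.089), Hsph1 (-0.41 to 0.19), Hspb1 (-0.14 to 0.059), Hspb8 (-0.30 to 0.15), Dnajb1 (-0.0013 to 0.21), Dnaja3 (-0.13 to 0.019), Tcp1 (-0.11 to 0.21), Cct2 (-0.14 to 0.19), Cct3 (-0.097 to 0.25), Cct4 (-0.19 to 0.28), Cct5 (-0.29 to 0.10), Cct6a (-0.17 to 0.10) and Cct6b (-0.081 to 0.44), and the ratio to the reference of Hsph1 (-0.037 to 0.11) and Dnajc2 (-0.0084 to 0.054). Without a turn, and beside the ranges in the report, it moved by over 1.5 times the change at 1 µM of Dnajb5 (0.025 to 0.39), Hspa4l (0.059 to 0.50), Hspa9 (0.064 to 0.38), Hspb11 (0.19 to 0.48), Hspa12b (-0.51 to -0.20), Hspa2 (-0.70 to -0.21), Hsp90aa1 (0.0075 to 0.087), Hspa1a (-0.49 to -0.24), Dnaja1 (-0.36 to -0.14), Cct8l1 (-0.44 to -0.085) and Dnajc25 (-0.83 to -0.45), at 100 nM of Hspa13 (0.21 to 0.60), Hspa1a (-0.44 to -0.11) and Hspa2 (-0.78 to -0.29), at 10 nM of Dnajb5 (0.18 to 0.50), and the ratio to the reference of Hspa9 (-0.11 to -0.028), Cct8 (0.098 to 0.29) and Cct8l1 (-0.23 to -0.12). For the turns not explained by the zero, the cause was not tested.

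Arrays that share a replicate number share only a number by the labels. Their deviations from the group means correlated at 0.12 to 0.27 for number 1, -0.11 to 0.16 for number 2 and 0.022 to 0.28 for number 3. With the replicate block 0 members were called at each dose, as were 0 of all genes. Against the reference over all groups 47 members were called, 30 higher and 17 lower. Beside them, 5636 of 14523 genes were called higher and 5047 lower. On control arrays 30 members were called, 21 higher and 9 lower, beside 3911 genes higher and 2944 lower.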

Other observations

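Genes next to the chaperone set also differed from the reference RNA (limma, mean of all groups, all genes 73.0%), and were picked here after their values were seen. Serpinh1, the collagen chaperone Hsp47 of the endoplasmic reticulum, was higher in 3T3 cells, at 1.31 (adjusted p = 1.77e-08), beside Fkbp4, a co-chaperone of Hsp90, at 1.18 and Bag3 at 1.00. Hspa5 (BiP), the main Hsp70 of the endoplasmic reticulum, was lower, at -1.16 (adjusted p = 9.59e-09), while Hsp90b1 (GRP94) was at 0.032 and was not called (adjusted p = 0.689). Cdc37 and the mitochondrial protease Lonp1 were lower, at -0.75 and -0.72. None of these genes passed at any dose.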
